A study of Mus musculus with 6 samples.

Results

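The genes of the cytoplasmic translation initiation factors were followed in islets of wild-type (WT) and *Akita* mice. Members were the protein-coding genes of the deposited table whose symbol starts with Eif and a digit. The genes *Eif2ak2*, *Eif2ak3*, *Eif4ebp1*, *Eif2s3x* and *Eif2s3y* were left out. This gave 50 genes of the 47729 in the table. Whole islets had been taken at postnatal days 19 to 21, from WT mice and from *Akita* mice, which carry 1 *Ins2* allele with the C96Y substitution beside 1 intact allele. There were 3 libraries per genotype, named WT1, WT2 and WT3 and AK4, AK5 and AK6 after the columns of the table, and each came from the islets of 3 mice pooled. The spread behind each p-value is thus that between pools. The paper's general islet protocol includes a night of recovery in culture before experiments. Its section on RNA sequencing does not say whether these islets were cultured.

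Initiation brings the small ribosomal subunit, loaded with initiator tRNA, to the start codon of an mRNA. eIF2 carries the initiator tRNA, eIF2B recharges eIF2 with GTP, eIF3 holds the small subunit, and the eIF4 factors bind the cap and unwind the leader. In β-cells under stress of the endoplasmic reticulum, phosphorylation of the α subunit of eIF2 slows this step. The complex mTORC1, when active, frees the cap-binding protein eIF4E from its binding proteins. By western blotting, the paper reports lower mTORC1 activity in *Akita* islets of this age. Both controls act on proteins, and mRNA levels do not measure them.

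Library totals ran from 22069554 to 27043169 counts, and the members held 0.661% to 0.712% of them. *Ins1* and *Ins2* together took 17.6% to 19.2% of the counts in WT and 11.8% to 12.6% in *Akita*, and β-cell markers were abundant in every library. Exocrine RNA varied within both groups. In CPM, counts scaled by library size, the summed level of 10 acinar markers was 5008, 226 and 5695 in WT1, WT2 and WT3, and 6293, 184 and 1068 in AK4, AK5 and AK6. The summed level of 5 β-cell markers was 219210 to 242231 CPM in WT and 129822 to 154968 CPM in *Akita*. The summed level of 3 α-cell markers was 26452 to 41011 CPM in WT and 38228 to 59550 CPM in *Akita*. That of 3 ductal markers was 75.1 to 109 CPM in WT and 10.4 to 86.45 CPM in *Akita*. For 3 macrophage markers it was 18.6 to 34.5 CPM in WT and 9.09 to 23.0 CPM in *Akita*. *Ppy*, the marker of PP-cells, was at 3075 to 3940 CPM in WT and 4203 to 6114 CPM in *Akita*, and 2 hemoglobin genes together at 4.09 to 6.99 and 7.40 to 19.3 CPM. *Malat1* and *Neat1*, nuclear RNAs taken as a sign of RNA quality, summed to 540.0 to 657 CPM in WT and to 571, 459 and 384 CPM in AK4, AK5 and AK6. The part of these RNAs in the results on the members was not tested. A fit with the acinar level as a covariate called 0 members, as did the fit without it. Of 15407 genes, 152 were called higher and 158 lower with the covariate, and 117 and 132 without it. With so few calls, 0 members in both fits does not show what the covariate changes. In such bulk samples fewer cells of a type and less RNA per cell cannot be told apart. At this age the paper found a similar ratio of β- to α-cells, and similar β-cell numbers per islet area, in both genotypes. From this it takes its RNA data to reflect mainly β-cells, without an influence of islet composition. It gives no such cell counts for the single pools.

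No initiation factor gene passed the test between *Akita* and WT, and the differences that were measured were small. Levels are counts scaled by library size and TMM factors (CPM), and the test was limma-voom with Benjamini–Hochberg adjustment over 15407 genes and a threshold of 0.05. Of the 50 members 48 passed the filter on low counts. The count called was 0 higher and 0 lower, while 0.759% of all genes tested were called higher and 0.857% lower. At such shares, 0 of 48 members called does not set them apart from all genes. The lowest adjusted p of a member was 0.0800, for *Eif2s1*. At an unadjusted p under 0.05, 2 members were higher, 4.17% of those tested against 9.77% of all genes. At the same threshold 6 members were lower, 12.5% against 8.89% of all genes. These counts depend on the scaling and on single pools. With library totals alone 7 were higher and 1 lower, beside 20.1% and 4.29% of all genes, and with the library size taken without hormone and acinar genes 3 were lower, beside 7.28%. The number lower was 3 without WT2, 3 without WT3 and 2 without AK5. The number higher was 0 without WT2, 4 without AK4, 1 without AK5 and 1 without AK6. The shares of all genes were not counted with a pool left out, so these last numbers are not a result particular to the members.

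The log2 fold changes of the 48 members lay between -0.33 and 0.27, with a median of -0.07, beside a median of 0.00 over all genes tested. The estimate was below 0 in 33 members and above 0 in 15, so 68.8% were below 0, against 50.2% of all genes. The sign of the members' median depends on the scaling: with library totals alone it was 0.047, but the median of all genes was then 0.12, and the members lay below it by 0.07 as with TMM factors. The median standard error was 0.087 for the members and 0.149 for all genes. The median level was 74.4 CPM for members and 17.1 CPM for all genes. In 44 of the 48 the unadjusted 95% interval of the log2 fold change lay within 0.5 of 0, which is a fold of 1.41, against 43% of all genes. The 4 others were *Eif2b3*, *Eif3j2*, *Eif4a1* and *Eif5a*, whose intervals reached beyond that size.

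**Figure D1:**
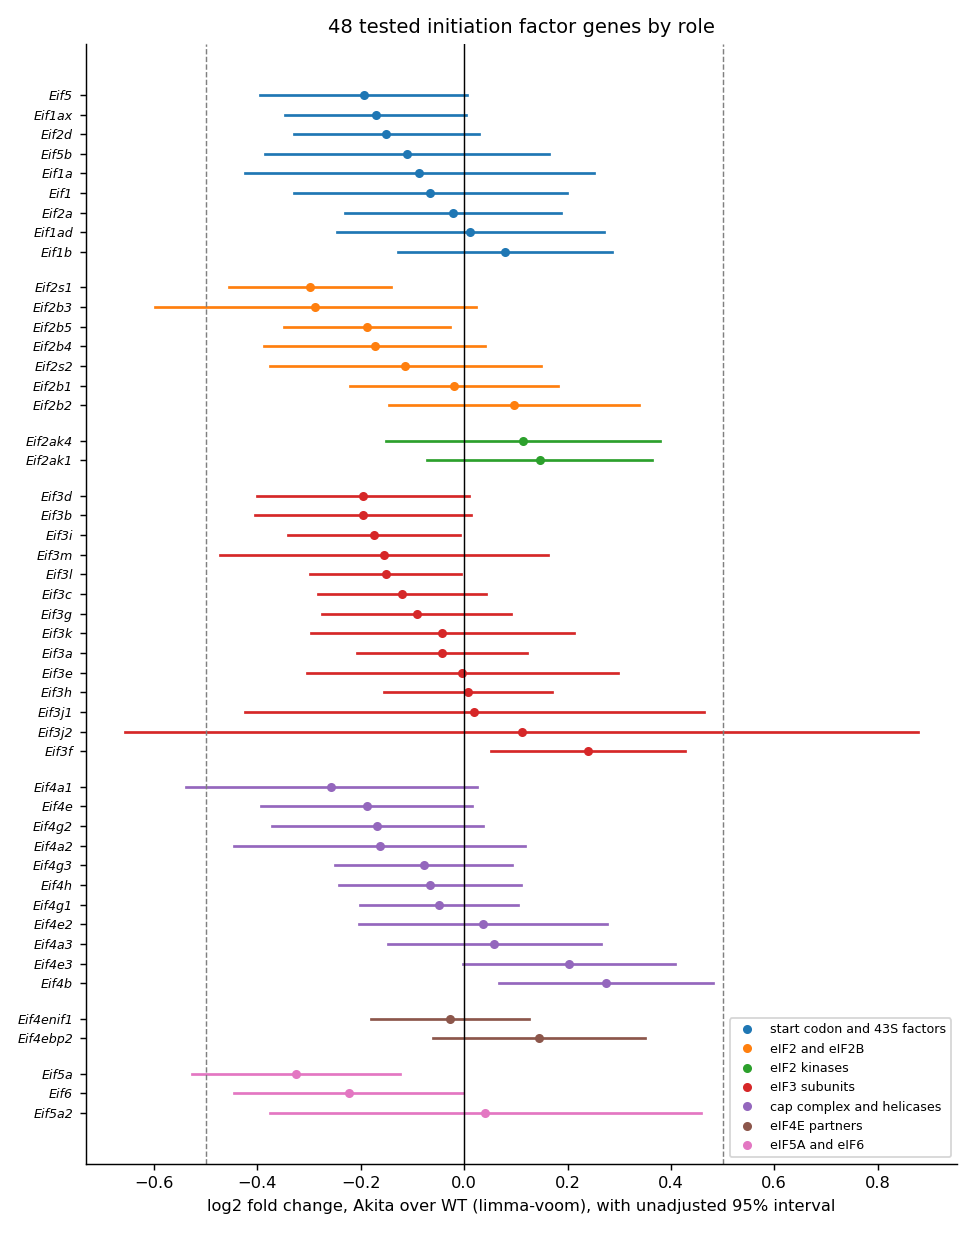
Log2 fold change of *Akita* over WT for the 48 tested initiation factor genes, grouped and coloured by role. Points are limma-voom estimates, lines are unadjusted 95% intervals, and dashed lines mark 0.5 on either side of 0; 44 intervals stay inside the dashed lines, and 33 points lie left of 0.

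RefSeq promoter windows of GRCm38.p6, from 250 bases before to 50 bases after a gene's start, were found for 39 of the 50 members. The regions around the start are shown for the 2 members that were higher and the 3 with the lowest p among those that were lower at an unadjusted p under 0.05, so that their starts can be compared. Each run has 80 bases before the start in lower case and the first 20 transcribed bases in capitals.
Eif4b: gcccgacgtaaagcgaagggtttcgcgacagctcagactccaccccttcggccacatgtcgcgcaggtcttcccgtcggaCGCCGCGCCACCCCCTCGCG
Eif3f: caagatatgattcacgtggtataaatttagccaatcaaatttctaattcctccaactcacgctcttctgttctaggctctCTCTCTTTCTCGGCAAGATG
Eif2s1: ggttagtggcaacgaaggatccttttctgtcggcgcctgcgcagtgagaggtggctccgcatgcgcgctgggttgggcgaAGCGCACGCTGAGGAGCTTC
Eif5a: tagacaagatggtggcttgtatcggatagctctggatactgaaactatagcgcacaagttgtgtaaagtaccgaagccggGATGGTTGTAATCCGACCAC
Eif2b5: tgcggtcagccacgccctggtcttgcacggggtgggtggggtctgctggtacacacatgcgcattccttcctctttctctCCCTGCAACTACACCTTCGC
They lie at chr15:102073693-102073792 (plus strand), chr7:108934335-108934434 (plus), chr12:78861992-78862091 (plus), chr11:69921939-69922038 (minus) and chr16:20498737-20498836 (plus). The RefSeq start of *Eif2s1* is 253 bases inside the gene of the deposited table, and the others are within 2 bases of it.

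A start with C followed by 4 pyrimidines is the form found in mRNAs of the translation machinery that mTORC1 controls. It was present at the RefSeq start of 1 of the 39 members, *Eif3f* (2.56%), and of 2.19% of 16038 protein-coding genes, a similar share. The match was sought only at the annotated first base, so a start annotated a few bases off would be missed. In 35 of the 39 windows the start lay within 100 bases of that in the deposited table. The motif CACGTG, which reads alike on both strands and is bound by MYC and related factors, was in the windows of 8 members, 20.5%, and of 8.08% of the protein-coding genes. It is shown in capitals in 3 of them.
Eif3a: ccgcgagggaatCACGTGgttccttccttt
Eif3f: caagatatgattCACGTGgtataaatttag
Eif4g1: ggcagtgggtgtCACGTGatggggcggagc
These lie at chr19:60790654-60790683 (minus strand), chr7:108934335-108934364 (plus) and chr16:20672661-20672690 (plus), after the start in *Eif3a* and before it in both others. The RefSeq start of *Eif4g1* lies 4414 bases inside the gene of the deposited table. The other 5 members with the motif were *Eif1b*, *Eif3k*, *Eif4a1*, *Eif4h* and *Eif5a2*. The motif CCGGAAG, bound by ETS factors and searched on both strands, was in 14 windows, 35.9%, against 12.2% of protein-coding genes. For CACGTG and CCGGAAG alike, the protein-coding genes were taken at any level, while the members' median level was above that of all genes tested. The shares in genes of a level like the members' were not counted, so the excess is not shown to be particular to the members. TGATGNAA, a form of the element bound by ATF4 and CHOP, was in 0 of the 39 windows and in 3.49% of all, and the ER stress element ERSE in 0 and in 0.162%, both searched on both strands. At such low shares, 0 of 39 windows does not set the members apart from all genes. The median log2 fold change was -0.04 in the 8 members with CACGTG and -0.11 in the 31 without. It was -0.04 in the 14 members with CCGGAAG and -0.07 in the 25 without. These medians are a description, with no test. A match is a run of letters and does not show that a factor was bound.

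Of the 7 genes of eIF2 and eIF2B, 6 had estimates below 0, with a median log2 fold change of -0.17. In 3 of them all *Akita* pools were below all WT pools, as was so in 12.2% of all genes tested, and in 0 all were above, as in 13.1% of all genes. *Eif2s1* (chr12:78861819-78887010, GRCm38) encodes the α subunit that is phosphorylated under stress. Its level was 65.7, 67.3 and 63.9 CPM in WT1, WT2 and WT3, and 55.3, 52.4 and 52.5 CPM in AK4, AK5 and AK6. All *Akita* pools were below all WT pools, with little spread inside either group. The mean was 65.6 ± 1.72 CPM in WT and 53.4 ± 1.64 CPM in *Akita* (SD, n = 3 each). The log2 fold change was -0.30 with a standard error of 0.066, and the adjusted p of limma-voom was 0.0800. The unadjusted 95% interval of the fold was 0.729 to 0.907. At an adjusted p under 0.10 *Eif2s1* was the only member called, beside 2.45% of all genes called lower at that threshold. With library totals alone its log2 fold change was -0.18 (adjusted p = 0.228), beside a median of 0.12 over all genes.

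*Eif2b5* (chr16:20498817-20509955) encodes the catalytic ε subunit of eIF2B. Its level was 66.3, 68.0 and 72.5 CPM in the WT pools and 59.3, 61.0 and 61.0 CPM in the *Akita* pools, so the groups did not overlap. The log2 fold change was -0.19 with a standard error of 0.068 (adjusted p = 0.207). *Eif2b3*, of the γ subunit, had 22.3, 28.3 and 20.6 CPM in WT and 19.8, 19.2 and 18.9 CPM in *Akita*. Here 1 WT pool, WT2, stood above the rest, and the 95% interval of the log2 fold change, -0.60 to 0.02, was the widest of the group. *Eif2b2*, of the β subunit, was the only gene of the group with an estimate above 0. Its level was 44.9, 40.2 and 38.7 CPM in WT and 39.5, 47.7 and 45.7 CPM in *Akita*, with overlap (adjusted p = 0.667). The estimates of *Eif2s2*, *Eif2b1* and *Eif2b4* were -0.11, -0.02 and -0.17 on the log2 scale, with overlapping groups.

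The eIF2 kinases *Eif2ak1* (HRI, which senses heme) and *Eif2ak4* (GCN2, which senses uncharged tRNA) had estimates above 0. *Eif2ak1* had 45.1, 47.0 and 47.0 CPM in WT and 46.9, 57.2 and 50.2 CPM in *Akita*. *Eif2ak4* had 34.0, 32.9 and 27 CPM in WT and 35.4, 35.2 and 31.1 CPM in *Akita*. The groups overlapped in both, and the log2 fold changes were 0.15 and 0.11 (adjusted p = 0.444 and 0.643). Single pools weighed on both: *Eif2ak1* was at 0.072 without AK5, and *Eif2ak4* at 0.018 without WT3 and at 0.18 without WT1.

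**Figure D2:**
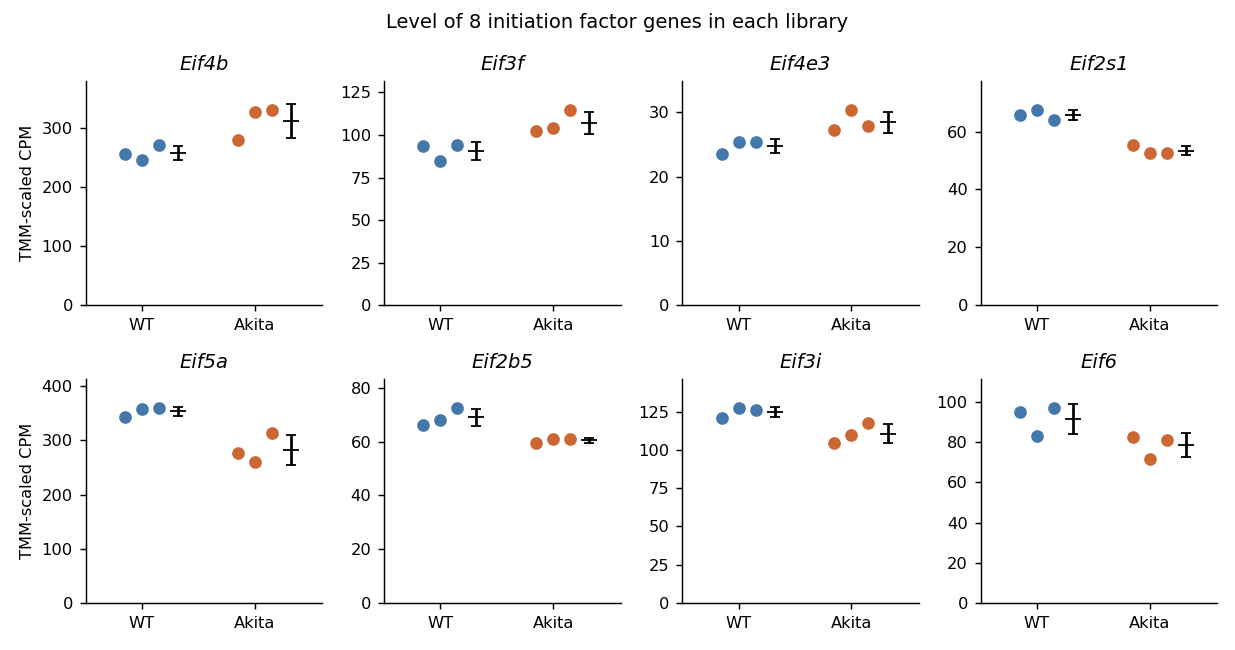
TMM-scaled CPM of 8 initiation factor genes in each library, with WT in blue and *Akita* in orange; bars beside the points are mean ± SD of 3 pools and the axes start at 0. *Eif4b*, *Eif3f* and *Eif4e3* lie higher in every *Akita* pool than in any WT pool, and the other 5 lie lower.

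Among the 9 factors of start codon selection and subunit joining, 7 had estimates below 0, and the median was -0.09 on the log2 scale. In 2 all *Akita* pools were below all WT pools and in 0 all were above, beside 12.2% and 13.1% of all genes. *Eif5* encodes the protein that triggers GTP hydrolysis on eIF2. It had 371, 392 and 358 CPM in WT and 315, 305 and 361 CPM in *Akita*, so that AK6 lay within the WT range while AK4 and AK5 lay below it. Its log2 fold change was -0.19 with a standard error of 0.085 (adjusted p = 0.281). *Eif1ax*, an X-linked gene of eIF1A, had 51.6, 54.8 and 50.2 CPM in WT and 47.8, 44.2 and 47.1 CPM in *Akita*, with no overlap (adjusted p = 0.278). *Eif2d*, of a factor that can deliver tRNA without eIF2, also showed no overlap, with a mean of 51.6 ± 3.09 CPM in WT and 46.3 ± 1.32 CPM in *Akita* (n = 3). *Eif1b*, a close relative of *Eif1*, had 48.6, 52.8 and 49.9 CPM in WT and 48.2, 55.7 and 56.2 CPM in *Akita*, with overlap. *Eif1*, *Eif1a*, *Eif1ad*, *Eif2a* and *Eif5b* lay between -0.11 and 0.01 on the log2 scale of change.

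Of the 14 eIF3 subunit genes 0 were called, beside 0.759% of all genes called higher and 0.857% lower. The median log2 fold change of the subunit genes was -0.07, with 10 estimates below 0 and 4 above. In 5 (*Eif3b*, *Eif3c*, *Eif3d*, *Eif3i* and *Eif3l*) all *Akita* pools were below all WT pools, and in *Eif3f* (chr7:108934417-108942951) all were above, beside 12.2% and 13.1% of all genes. *Eif3f* had 93.3, 84.5 and 93.9 CPM in WT and 102, 104 and 115 CPM in *Akita*. Its log2 fold change was 0.24 with a standard error of 0.079, and the adjusted p was 0.177. *Eif3f* and *Eif3h* form a pair inside the complex, and *Eif3h* had a log2 fold change of 0.01 with an interval of -0.15 to 0.17.

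*Eif3i* had 121, 127 and 126 CPM in WT and 105, 109.7 and 118 CPM in *Akita* (log2 fold change -0.17, adjusted p = 0.251). *Eif3l* had 116, 119.6 and 124 CPM in WT and 107, 108 and 108 CPM in *Akita* (log2 fold change -0.15, adjusted p = 0.252). The folds were 0.886 and 0.900, and *Eif3l* had almost the same level in all *Akita* pools. *Eif3b*, of a core subunit, had 198, 192 and 219 CPM in WT and 191, 162 and 179 CPM in *Akita* (adjusted p = 0.297). *Eif3d*, whose product can bind caps by itself, had 81.9, 85.5 and 95.8 CPM in WT and 77.3, 71.4 and 80.6 CPM in *Akita*. An antisense gene covers 43.3% of the exon bases of *Eif3d*, and since the kit did not mark strand the reads of both cannot be told apart.

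Levels per kilobase of exon, which allow a comparison between genes, differed widely among the subunits. In WT the highest was *Eif3c* with 73.9 ± 1.74 CPM per kb, followed by *Eif3h* with 64.5 ± 0.781 and *Eif3b* with 60.6 ± 4.2 CPM per kb (SD, n = 3). The last 2 of these lay within their spread of each other. *Eif3e* had 15.7 ± 0.962 CPM per kb in WT. *Eif3j1* and *Eif3j2*, copies of 1 gene, had 0.858 ± 0.150 and 2.01 ± 0.702 CPM per kb in WT. Of the stretches of read length in *Eif3j1* and *Eif3j2*, 50.9% and 91.8% also occur in transcripts of other genes, so their low counts are uncertain. The exon length is the union of all annotated exons and differs from that of the transcripts expressed.

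**Figure D3:**
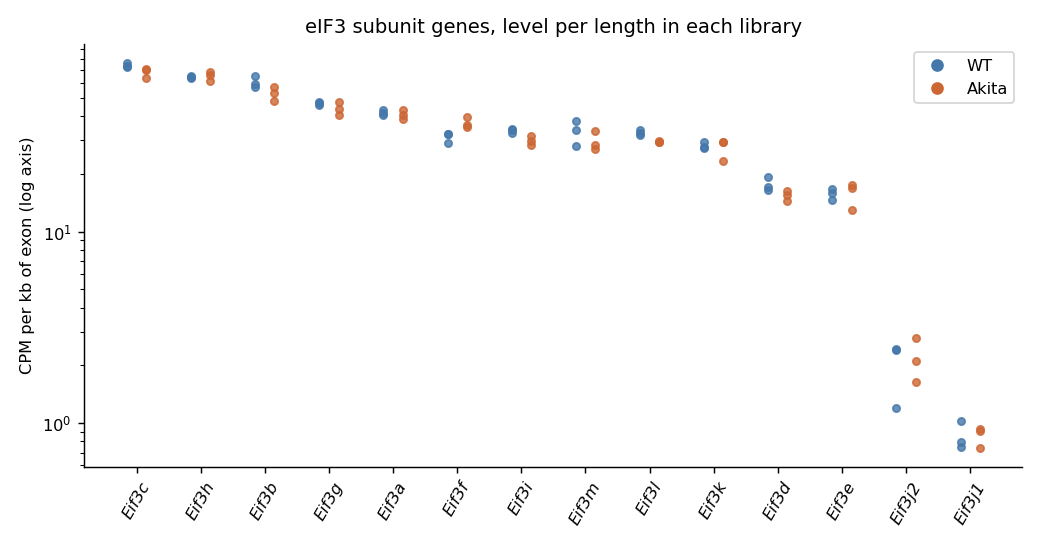
Level of the 14 eIF3 subunit genes in CPM per kb of exon on a log axis, 1 point per library, WT in blue and *Akita* in orange, ordered by the mean of 6 libraries. *Eif3c* is the highest and *Eif3j1* the lowest. *Eif3f* is the subunit whose *Akita* points all lie above the WT points.

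Of the 12 genes of the cap complex and helicases, 11 were tested, with a median log2 fold change of -0.07. *Eif4b* (chr15:102073773-102097172), which stimulates the helicase eIF4A, had the largest increase of any member by estimate. Its level was 256, 247 and 272 CPM in WT and 280.0, 329 and 331 CPM in *Akita*. The groups did not overlap, and AK4 lay close to WT3. The mean was 258 ± 12.6 CPM in WT and 313 ± 28.8 CPM in *Akita* (SD, n = 3). The log2 fold change was 0.27 with a standard error of 0.088, the fold had an unadjusted interval of 1.05 to 1.40, and the adjusted p was 0.165. With library totals in place of TMM factors *Eif4b* was called, with a log2 fold change of 0.39 and an adjusted p of 0.0381, but that scaling put the median of all genes at 0.12 and called 2.92% of them higher. Relative to that median the change was like the one above.

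Of the genes of cap-binding proteins 0 were called, beside 0.759% of all genes called higher and 0.857% lower. *Eif4e* had 57.3, 62.1 and 60.8 CPM in WT and 48.1, 53.3 and 57.1 CPM in *Akita*, with a log2 fold change of -0.19 and a standard error of 0.087 (adjusted p = 0.302). AK6 lay just below WT1, so the groups were apart by a narrow margin. *Eif4e3*, an atypical cap binder, had 23.5, 25.4 and 25.4 CPM in WT and 27.2, 30.3 and 27.9 CPM in *Akita*, with a log2 fold change of 0.20 (adjusted p = 0.272). Another annotated gene overlaps 14.8% of the exon bases of *Eif4e3*, and their reads were not separated here. *Eif4e2*, whose protein binds caps but represses, had a log2 fold change of 0.04 with overlapping groups.

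Ratios within a library do not depend on the scaling, and 9 ratios between related genes were computed from counts per kb of exon. The ratio of *Eif4e3* to *Eif4e* was 0.979, 0.976 and 0.999 in WT and 1.35, 1.36 and 1.17 in *Akita*. The ratio of *Eif4ebp2* to *Eif4e* was 0.670, 0.678 and 0.686 in WT and 0.952, 0.896 and 0.724 in *Akita*. *Eif4ebp2* encodes a repressor that competes with eIF4G for eIF4E. The ratio of *Eif4e2* to *Eif4e* was 0.675, 0.618 and 0.673 in WT and 0.808, 0.685 and 0.809 in *Akita*. In these 3, which share *Eif4e* as the denominator, all *Akita* pools were above all WT pools, and the exact two-sided permutation p was 0.1 for each, the smallest that 3 pools against 3 allow, and 0.3 after Benjamini–Hochberg adjustment over the 9 ratios. The other 6 ratios overlapped between groups, among them *Eif4a1* to *Eif4a2*, *Eif4g2* to *Eif4g1* and *Eif5a2* to *Eif5a*.

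**Figure D4:**
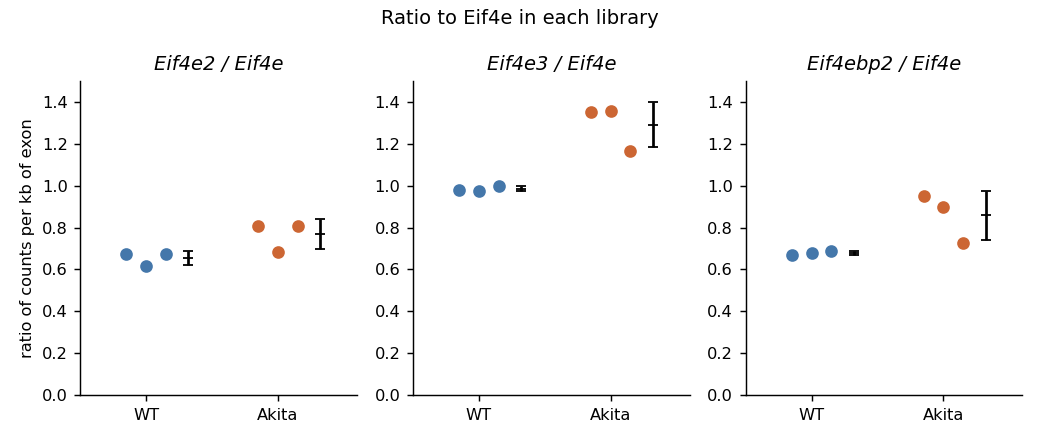
Ratio of *Eif4e2*, *Eif4e3* and *Eif4ebp2* to *Eif4e*, from counts per kb of exon, in each library, with mean ± SD of 3 pools beside the points. The *Akita* points lie above the WT points in each panel, by the widest margin for *Eif4e3*, from 0.999 in WT3 to 1.17 in AK6.

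*Eif4g1*, the scaffold of the cap complex, differed little. It had 615, 622 and 636 CPM in WT and 625, 578 and 609.7 CPM in *Akita*, a log2 fold change of -0.05 with an interval of -0.20 to 0.10. *Eif4g2*, a relative that does not bind eIF4E, was the member with the highest counts, at 1165, 1256 and 1236 CPM in WT and 1025, 1034 and 1202 CPM in *Akita*, with overlap through AK6. *Eif4a1*, a helicase gene with 28.4% of its read-length stretches in other genes' transcripts, mostly those of the pseudogene *Eif4a-ps4*, had 56.7, 70.7 and 67.8 CPM in WT and 53.7, 48.7 and 60.8 CPM in *Akita*. The interval of its log2 fold change was -0.54 to 0.02. *Eif4a2* was higher than *Eif4a1* per length in every library, the ratio of *Eif4a1* to *Eif4a2* being 0.142 to 0.187. *Eif4a3*, *Eif4g3* and *Eif4h* lay between -0.08 and 0.06 on the log2 scale of change, and all 3 overlapped.

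Of the eIF4E partners, *Eif4ebp2* had 37.0, 40.6 and 40.1 CPM in WT and 44.1, 46.0 and 39.8 CPM in *Akita*. AK6 lay within the WT range, and the log2 fold change was 0.14 with a standard error of 0.087 (adjusted p = 0.427). *Eif4enif1*, which carries eIF4E into the nucleus, had a log2 fold change of -0.03 with an interval of -0.18 to 0.13. The 2 members that did not pass the filter were *Eif4ebp3* and *Eif4e1b*. *Eif4ebp3* had 5, 7 and 9 counts in WT and 5, 3 and 9 counts in *Akita*, and 67.3% of its exon bases overlap another gene. *Eif4e1b* had 0 counts in all 6 libraries, which at 3 counts per library allows a level of up to 0.111 to 0.136 CPM, by counting error only.

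*Eif5a* (chr11:69916714-69921958) had the largest decrease of any member by estimate. It encodes the hypusine-carrying factor that helps ribosomes through stretches hard to translate. Its level was 344, 358 and 360.0 CPM in WT and 276, 259.5 and 314 CPM in *Akita*. The groups did not overlap, and AK6 was the nearest to WT. The mean was 354 ± 8.82 CPM in WT and 283 ± 27.8 CPM in *Akita* (SD, n = 3). The log2 fold change was -0.33 with a standard error of 0.085, the fold had an unadjusted interval of 0.694 to 0.917, and the adjusted p was 0.111. With library totals alone the log2 fold change was -0.21 (adjusted p = 0.166), beside a median of 0.12 over all genes. Per length *Eif5a* was also the highest member, at 149 ± 3.71 CPM per kb in WT, beside 120 ± 4.71 for *Eif4g2* and 4.14 ± 0.683 for its paralog *Eif5a2*.

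*Eif6*, which keeps large subunits apart from small ones, had 95, 83.0 and 97.1 CPM in WT and 82.8, 71.6 and 81.2 CPM in *Akita*. WT2 and AK4 were almost level, so the groups were apart by less than 1 CPM. The log2 fold change was -0.22 with a standard error of 0.094 (adjusted p = 0.265).

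By pools, 13 of the 48 members had all *Akita* values below all WT values, 27.1% of those tested, beside 12.2% of all genes. Only 3 members, 6.25%, had all *Akita* values above, beside 13.1% of all genes. With library totals alone 2 members were below, beside 5.17% of all genes, and 10 above, beside 25.9%. AK4 and AK5 differed from AK6. AK4 was below the WT range in 32 members, AK5 in 28 and AK6 in 18, while AK6 was above it in 17. The median log2 deviation of the members from each gene's mean was 0.00, 0.07 and 0.04 in WT1, WT2 and WT3 and -0.10, -0.08 and 0.04 in AK4, AK5 and AK6. AK6 thus lay among the WT pools by this median. With a pool left out, fewer values have to be apart and the counts of all genes rose too. Without AK6, 21 members were below WT in both *Akita* pools left, beside 17.1% of all genes. Without AK4, 10 members were above, beside 22.6% of all genes. The count of members called was 0 in both directions in each case. Of all 15407 genes, 0 were called without AK6, and 347 higher and 242 lower without AK4. The summed acinar level given above was 6293 CPM in AK4, 184 in AK5 and 1068 in AK6, and its part in these deviations was not tested.

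**Figure D5:**
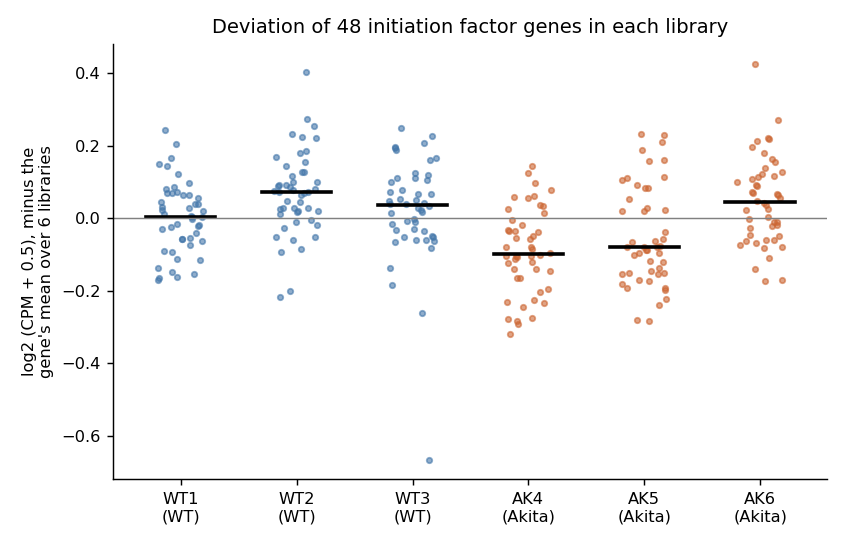
Log2 (CPM + 0.5) of each of the 48 members minus that gene's mean over 6 libraries, by library, with WT in blue, *Akita* in orange and the median as a black line. The median is -0.10 in AK4 and -0.08 in AK5, but 0.04 in AK6, as in WT3.

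Other translation genes were described from a list of 34, all tested, which the rule on symbols does not take in. The count called was 0 in each direction, beside 0.759% of all genes called higher and 0.857% lower. The median log2 fold change of the 34 was -0.03, with 15 estimates above 0 and 19 below. The lowest p was that of *Eef2k*, the kinase that inhibits elongation factor 2. It had 17.6, 14.1 and 15.2 CPM in WT and 25.5, 21.5 and 22.8 CPM in *Akita*, a log2 fold change of 0.57 with a standard error of 0.12 and an adjusted p of 0.0733. All *Akita* pools were above all WT pools, by a larger fold than in any tested member. *Cyfip1*, of an eIF4E-binding protein, had 66.8, 64.3 and 64.6 CPM in WT and 56.3, 53.5 and 50.3 CPM in *Akita* (adjusted p = 0.101). *Gspt1*, of the termination factor eRF3, had 143, 140.1 and 123 CPM in WT and 115, 108 and 107 CPM in *Akita* (adjusted p = 0.122). *Eef1e1*, of a protein of the multi-tRNA synthetase complex, had 20.8, 25.0 and 22.7 CPM in WT and 16.9, 15.9 and 19.6 CPM in *Akita* (adjusted p = 0.154). In the last 3, all *Akita* pools lay below all WT pools. These genes were picked by their low p, so groups that lie apart are no further result. Of the 34 genes, 3 had all *Akita* pools above all WT pools and 6 had all below, beside 13.1% and 12.2% of all genes.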

How the data were processed

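By the submitters' processing notes, the authors used cutadapt 1.12 for trimming, STAR 2.5.2b for alignment to GRCm38, HTSeq 0.7.2 for counting and DESeq2 1.12.4 for testing. No source used here states their annotation release or strand setting. The columns used hold the authors' deposited counts per gene and library; 6815 genes carry a mark in place of counts. The columns were therefore not taken as a plain count table, the edgeR test that had been planned was replaced by limma-voom, and neither it nor DESeq2 was run here. The authors' fold changes, p-values and normalized counts, also deposited, were not used. Columns AK4 to AK6 were matched to the genotype, not to single samples.

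Software was limma 3.58.1 under R 4.3.3, and SciPy 1.17.1 with pandas 2.3.3 under Python 3.11.15. A gene was tested if its CPM in 3 or more libraries was at least what 10 counts make in a library of median size, and if it had 15 counts or more in all. TMM factors (0.937 to 1.09) scaled the libraries, and limma-voom worked on log2 CPM, pseudocount 0.5. The fit was also run on simulated counts with the same dispersion for every gene, which does not show how it handles the spread between these pools. Exons and overlaps came from a GENCODE annotation of GRCm38, which may differ from the one the authors counted with. Depth limits weak genes, and the spread between pools limits strong ones. Libraries of a group differed by more than sampling noise (chi-square per degree of freedom of at least 20.4). Members, lists and ratios were chosen with earlier results of these data known. Values per library were given for the 8 tested members of lowest p in each direction, for 7 set genes, for members with too few counts and for up to 4 genes outside the rule; *Eif2b3*, *Eif3b*, *Eif3d*, *Eif4a1* and *Eif4g2* were added after their values were seen. The alternatives were other scalings, filters and thresholds, limma-trend, an acinar covariate and each library left out.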

Additional observations from a re-analysis of the deposited data

How the results depend on the processing

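Few of all genes were called in the main fit, 0.759% higher and 0.857% lower. The count of members called was 0 in both directions under 13 of the 15 alternatives. With library totals alone it was 1 higher (*Eif4b*), and at an adjusted p under 0.10 it was 1 lower (*Eif2s1*). The median of the members minus that of all genes was -0.11 to -0.04 over all alternatives. Library totals alone moved the median of all genes to 0.12. There the counts at an unadjusted p under 0.05 became 7 above and 1 below WT, 10 and 2 had no overlap, *Eif4g1* turned to 0.072, and the median log2 fold change was 0.047 for all members, 0.033 for start codon factors, -0.055 for eIF2 and eIF2B, 0.25 for eIF2 kinases, 0.053 for eIF3, 0.054 for the cap complex, 0.18 for eIF4E partners and -0.10 for eIF5A and eIF6. With the library size taken without hormone and acinar genes, 3 members were lower at an unadjusted p under 0.05, beside 7.28% of all genes. There 7 members had no overlap below WT, and the share of all genes was not counted. Without a filter the median of eIF4E partners was -0.024. Of the genes outside the rule 1, *Eef2k*, was called higher at an adjusted p under 0.10 and 1, again *Eef2k*, with the acinar covariate (adjusted p = 0.0463).

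With each library left out in turn, the count of members called was 0 in both directions. Of all 15407 genes, 0 were called without AK6, 1 higher and 0 lower without WT3, and 2 and 5 without WT2. The numbers were 25 and 27 without AK5, 21 and 43 without WT1, and 347 and 242 without AK4. With so few calls over all genes, 0 members called does not show that the result is stable. Members at an unadjusted p under 0.05 numbered 0 (without WT2) to 4 (without AK4) above WT and 2 (without AK5) to 9 (without AK6) below. The shares of all genes at that threshold were not counted in these fits, so these numbers are not a result particular to the members. Those with no overlap numbered 3 to 10 (without AK4, beside 22.6% of all genes) above and 13 to 21 (without AK6, beside 17.1%) below. These numbers cannot fall when a pool is left out, since the same scaled levels were compared. They thus do not show stability, and the shares of all genes were not counted for the other cases. The median log2 fold change was -0.095 to -0.036 for all members, -0.15 (without AK6) to 0.030 (without AK4) for start codon factors and -0.29 (without WT2) to -0.15 (without AK5) for eIF5A and eIF6. *Eif3j2* ranged from -0.19 (without WT3) to 0.30 (without AK4) and was -0.075 without AK6.

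No paired analysis was possible because the *Akita* columns carry the numbers 4 to 6, and the columns of the groups share no replicate number. A fit with DESeq2 was not run, since the columns were not taken as plain counts. The cause of these shifts was not tested, beyond the smaller number of pools when 1 is left out. The median standard error of a member, 0.087 on the log2 scale, sets the size of change that could be seen.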
